A study of Capra hircus with 10 samples.

Results

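The 9 genes described here, AMH, AMHR2, FSHR, FOXL2, FOXO1, FOXO3, GATA4, GATA6 and WT1, encode the granulosa cell hormone anti-Müllerian hormone, its receptor, the receptor of follicle-stimulating hormone (FSH) and 6 transcription factors known in the ovary. They were chosen by symbol, and the protein-coding transcripts of each symbol were summed. All 9 were found among the 20587 protein-coding symbols of the table, and all 9 passed the filter on low values that left 15359 genes for testing. RNA had been sequenced from whole ovaries of Anhui white goats (Capra hircus), 5 in the follicular phase and 5 in the luteal phase of the estrous cycle, as 1 library per ovary. The ovaries came from a slaughterhouse, no treatment is named for them, and the labels give neither an age nor a day of the cycle. Because the labels do not say that the ovaries of a phase came from separate goats, every p-value below measures the spread between these ovaries. Values are FPKM, fragment numbers corrected for transcript length and for library size, so levels of different genes can be set side by side.

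Granulosa cells surround the oocyte and grow with it from the primordial to the preovulatory follicle. FSH from the pituitary binds FSHR on these cells and, through cyclic AMP, drives their growth, estrogen synthesis and inhibin secretion. AMH is secreted by granulosa cells of growing follicles, signals through AMHR2 to SMAD proteins, and is known for restraining follicle recruitment and the response to FSH. After ovulation the granulosa and theca cells turn into the luteal cells of the corpus luteum, which make progesterone.

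All 9 genes were lower in the luteal phase ovaries, and all 9 passed the test (limma, adjusted p under 0.05). Of all genes tested, 27.8% were called lower in the luteal phase and 43.7% were called in either direction. The median log2 fold change (luteal minus follicular) of the 9 genes was −0.72, beside −0.14 over all genes tested, whose 10th and 90th percentiles were −0.74 and 0.65. In 7 of the 9 genes every luteal ovary lay below every follicular ovary, a separation that 17.2% of the genes tested showed in this direction and 28.4% in either direction. The FPKM of the 9 genes added up to between 66.9 and 81.1 per luteal ovary and between 110 and 136 per follicular ovary. In whole ovaries, fewer cells of a type and less RNA per cell cannot be told apart. How the calls of the table split by direction depended on the scaling: 63.7% of all calls were lower in the luteal phase on the deposited scale, 51.2% once the medians of the ovaries had been made equal and 47.5% after each ovary was scaled to the same total (TPM), while all 9 genes kept a lower luteal value on all 3 scales. On the TPM scale 6 of the 9 were called, and FOXO1, GATA6 and WT1 were not (limma, adjusted p = 0.0541, 0.131 and 0.0577).

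**Figure D1:**
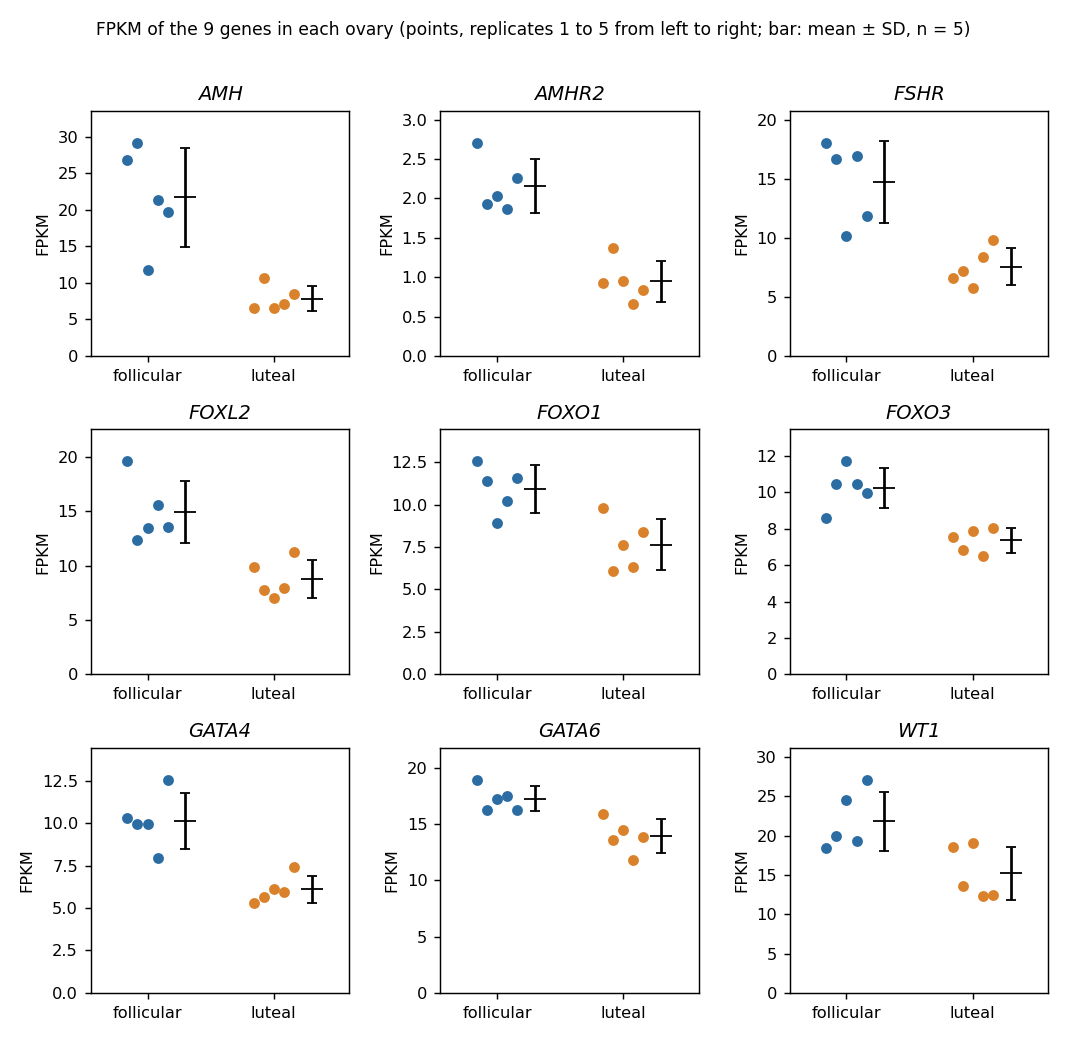
Each panel plots the FPKM of 1 gene (y axis, from 0) in the 5 follicular (blue) and 5 luteal (orange) ovaries, with the mean and SD of the phase beside the points. The points of the phases do not overlap for 7 genes, and they overlap for FOXO1 and WT1.

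The hormone AMH changed most. Its FPKM was 26.8, 29.2, 11.8, 21.3 and 19.8 in follicular ovaries 1 to 5, and 6.49, 10.7, 6.57, 7.09 and 8.41 in luteal ovaries 1 to 5. No luteal ovary reached the lowest follicular ovary, number 3, which lay well below the other 4 of its phase. The mean fell from 21.8 ± 6.78 to 7.85 ± 1.76 FPKM (SD, n = 5 per phase), so that the luteal mean was 36.1% of the follicular mean. On the log2(FPKM + 0.1) scale the change was −1.42 (SE 0.23, 95% interval −1.92 to −0.92, limma, adjusted p = 0.000619), and 1.17% of the genes tested had a more negative one. Within the ovary, AMH stood on average at the 83.5th percentile of the 20587 protein-coding symbols, tested or not, in the follicular phase. In the luteal phase it stood at the 66.1st percentile.

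AMHR2, the type II receptor of AMH, was the least abundant of the 9 genes in both phases. It had 2.71, 1.93, 2.03, 1.86 and 2.26 FPKM in follicular ovaries 1 to 5 and 0.932, 1.37, 0.953, 0.664 and 0.833 FPKM in luteal ovaries 1 to 5. The phases did not overlap, and luteal ovary 2 was the highest of its phase for AMHR2, as it was for AMH. The mean was 2.16 ± 0.342 FPKM in the follicular and 0.950 ± 0.260 FPKM in the luteal phase, a log2 fold change of −1.12 (SE 0.18, limma, adjusted p = 0.000695), which was −0.70 with a pseudocount of 1.

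FSHR, the FSH receptor, had 18.0, 16.7, 10.1, 16.9 and 11.9 FPKM in follicular ovaries 1 to 5 and 6.59, 7.20, 5.79, 8.38 and 9.85 FPKM in luteal ovaries 1 to 5. The phases did not overlap, although follicular ovary 3 and luteal ovary 5 came close to each other. The luteal mean of 7.56 ± 1.59 FPKM was 51.4% of the follicular mean of 14.7 ± 3.50 FPKM (SD, n = 5 per phase), and the log2 fold change was −0.94 (SE 0.19, limma, adjusted p = 0.00210).

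Among the transcription factors, FOXL2 and GATA4 changed most. FOXL2 is a forkhead factor that maintains the granulosa cell state. Follicular ovaries 1 to 5 had 19.6, 12.4, 13.5, 15.6 and 13.6 FPKM of FOXL2 and luteal ovaries 1 to 5 had 9.92, 7.75, 7.04, 7.91 and 11.3 FPKM. The phases did not overlap, and the highest luteal ovary, number 5, lay just under the lowest follicular ovary, number 2. The mean was 14.9 ± 2.87 FPKM in the follicular and 8.78 ± 1.75 FPKM in the luteal phase, a log2 fold change of −0.76 (SE 0.15, limma, adjusted p = 0.00233).

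GATA4 is a zinc finger factor that activates many steroidogenic and gonadal genes in granulosa and theca cells. It had 10.3, 9.92, 9.97, 7.93 and 12.5 FPKM in follicular ovaries 1 to 5 and 5.32, 5.65, 6.09, 5.95 and 7.43 FPKM in luteal ovaries 1 to 5. The phases did not overlap, and the follicular ovaries spread more widely than the luteal ones. The log2 fold change was −0.72 (SE 0.13, limma, adjusted p = 0.00110), from a mean of 10.1 ± 1.64 to one of 6.09 ± 0.807 FPKM.

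GATA6, its paralog, which acts beside GATA4 in the follicle and is also known in the corpus luteum, had the smallest change of the 9. Follicular ovaries 1 to 5 had 18.9, 16.3, 17.3, 17.5 and 16.3 FPKM and luteal ovaries 1 to 5 had 15.9, 13.6, 14.5, 11.8 and 13.9 FPKM. These ranges did not overlap but nearly met, at luteal ovary 1 and follicular ovaries 2 and 5. The log2 fold change was −0.31 (SE 0.09, 95% interval −0.50 to −0.12, limma, adjusted p = 0.0130), and 34.5% of the genes tested had a more negative one. The luteal mean of 13.9 ± 1.49 FPKM was 80.8% of the follicular mean of 17.3 ± 1.10 FPKM. On the TPM scale the GATA6 change was −0.21 and was not called (limma, adjusted p = 0.131).

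FOXO1 and FOXO3 are forkhead factors that the PI3K and AKT kinases keep out of the nucleus. FOXO1 is known in granulosa cells of growing follicles, where FSH acts against it, and FOXO3 is known for holding primordial follicles dormant, a role it has in the oocyte. FOXO1 had 12.5, 11.4, 8.90, 10.2 and 11.6 FPKM in follicular ovaries 1 to 5 and 9.77, 6.11, 7.65, 6.32 and 8.37 FPKM in luteal ovaries 1 to 5. The phases overlapped through luteal ovary 1, which exceeded follicular ovary 3. The log2 fold change was −0.52 (SE 0.14, limma, adjusted p = 0.0115), with means of 10.9 ± 1.40 and 7.64 ± 1.51 FPKM, and on the TPM scale it was −0.42 and not called (limma, adjusted p = 0.0541).

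FOXO3 varied least between the luteal ovaries of all 9 genes, with a coefficient of variation of 9.16%. It had 8.62, 10.5, 11.7, 10.5 and 9.94 FPKM in follicular ovaries 1 to 5 and 7.54, 6.82, 7.88, 6.51 and 8.07 FPKM in luteal ovaries 1 to 5. The phases did not overlap, and follicular ovary 3, the lowest of its phase for AMH, FSHR and FOXO1, was the highest for FOXO3. The mean was 10.2 ± 1.12 FPKM in the follicular and 7.36 ± 0.675 FPKM in the luteal phase, a log2 fold change of −0.47 (SE 0.10, limma, adjusted p = 0.00311).

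WT1, a zinc finger factor of the embryonic gonad that is also found in granulosa and surface epithelial cells of the adult ovary, was the most abundant of the 9 on average in both phases. Follicular ovaries 1 to 5 had 18.4, 19.9, 24.5, 19.3 and 27.1 FPKM and luteal ovaries 1 to 5 had 18.6, 13.6, 19.0, 12.3 and 12.4 FPKM. Luteal ovaries 1 and 3 lay just inside the follicular range, and the other 3 lay below it. The mean was 21.8 ± 3.75 FPKM in the follicular and 15.2 ± 3.34 FPKM in the luteal phase, a log2 fold change of −0.53 (SE 0.16, limma, adjusted p = 0.0169), which was −0.44 and not called on the TPM scale (limma, adjusted p = 0.0577).

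**Figure D2:**
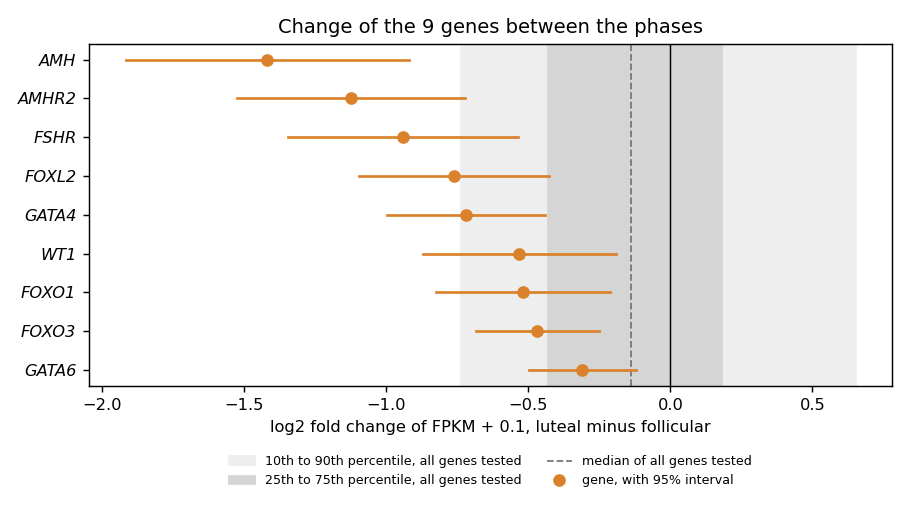
The x axis gives the log2 fold change of FPKM + 0.1 (luteal minus follicular), with its 95% interval, for each of the 9 genes on the y axis. The dark and light bands hold the 25th to 75th and 10th to 90th percentiles of all genes tested, and the dashed line is their median of −0.14. The 9 estimates run from −1.42 for AMH to −0.31 for GATA6, all left of that line.

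The order of the levels differed little between the phases apart from AMH. In the luteal ovaries the mean FPKM ran from WT1 (15.2) through GATA6, FOXL2, AMH, FOXO1, FSHR, FOXO3 and GATA4 to AMHR2 (0.950). Neighbours in this order overlapped between ovaries, except that all luteal ovaries had more GATA6 than any had FOXL2, and more GATA4 than any had AMHR2. In the follicular ovaries WT1 and AMH shared the top at 21.8 FPKM each, followed by GATA6, FOXL2, FSHR, FOXO1, FOXO3, GATA4 and AMHR2 (2.16). There, GATA4 and AMHR2 were the only neighbours whose ranges did not overlap.

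Pairs of related genes were compared within each ovary by the difference of their log2(FPKM + 0.1). AMH exceeded its receptor AMHR2 by 3.22 ± 0.51 in the follicular and 2.93 ± 0.27 in the luteal phase, a difference of −0.30 (SD, n = 5 per phase, exact permutation test, two-sided, p = 0.270). FOXO1 and FOXO3 differed by 0.09 ± 0.34 and 0.04 ± 0.20, and that balance moved by −0.05 (exact permutation test, p = 0.786). Neither difference passed the test. Leaving out 1 ovary gave −0.48 to −0.14 for AMH and AMHR2 and −0.17 to 0.061 for FOXO1 and FOXO3. With a pseudocount of 1 the difference of AMH and AMHR2 was −0.63 (exact permutation test, unadjusted p = 0.0317). That pseudocount took the change of the low AMHR2 from −1.12 to −0.70, and that of AMH from −1.42 to −1.32. GATA4 lay further below GATA6 in the luteal phase, at −1.18 ± 0.26 against −0.77 ± 0.28 in the follicular phase (difference −0.41, exact permutation test, p = 0.0397, adjusted over the 4 pairs 0.0794). FSHR lay below AMH by 0.53 in the follicular phase (−0.53 ± 0.25) and close to it in the luteal phase (−0.05 ± 0.33), a difference of 0.48 (exact permutation test, p = 0.0317, adjusted over the 4 pairs 0.0794). The smallest p that the divisions of the 10 ovaries allow is 0.00794, and no pair passed after adjustment. Leaving out 1 ovary ended the unadjusted call of GATA4 against GATA6 in 7 of 10 cases and that of FSHR against AMH in 6 of 10, with differences from −0.50 to −0.31 and from 0.41 to 0.61.

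The 9 genes are annotated with 18 protein-coding transcripts, of which 16 passed the filter and 8 were called, all lower in the luteal phase, beside 9.82% of all transcripts tested called lower. AMHR2, FSHR, FOXL2, FOXO1 and FOXO3 have a single transcript each, and each of these was called. Both AMH transcripts fell, XM_018050765.1 by 1.27 and XM_018050766.1 by 1.47 on the log2 scale (limma, adjusted p = 0.00622 and 0.00359), and the larger transcript by share, XM_018050766.1, held 68.4% of AMH in the follicular and 65.5% in the luteal phase.

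GATA4 was carried by a pair of transcripts of similar level. XM_018051832.1 had 6.69, 4.96, 5.51, 4.59 and 3.88 FPKM in follicular ovaries 1 to 5 and 3.36, 2.24, 3.08, 1.81 and 3.37 FPKM in luteal ovaries 1 to 5, without overlap, and its log2 fold change was −0.88 (limma, adjusted p = 0.0170). XM_018051833.1 overlapped between the phases, with 2.76 to 6.63 FPKM in the follicular and 1.75 to 3.67 FPKM in the luteal ovaries, and its change of −0.54 was not called (limma, adjusted p = 0.207). The most abundant transcripts of GATA6 (XM_018039631.1, 88.9% of the luteal and 88.3% of the follicular gene level) and WT1 (XM_018059287.1, 85.8% and 83.9%) changed by −0.30 and −0.50 and were not called over all transcripts (limma, adjusted p = 0.0562 and 0.0656). The share of a transcript in its gene was compared between the phases for 11 transcripts, and no share differed at an unadjusted exact permutation p under 0.05.

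**Figure D3:**
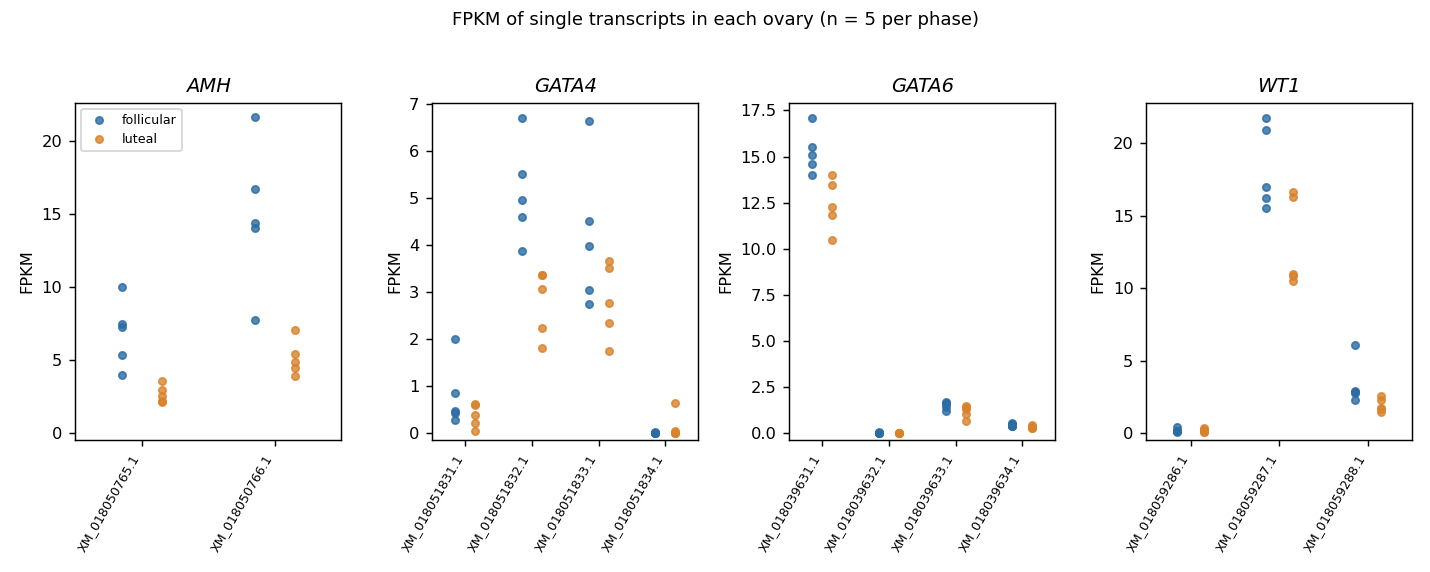
The FPKM (y axis, from 0) of every annotated protein-coding transcript of AMH, GATA4, GATA6 and WT1 is shown per ovary, follicular in blue and luteal in orange, n = 5 per phase. Both AMH transcripts, XM_018051832.1 of GATA4 and, narrowly, XM_018039631.1 and XM_018039632.1 of GATA6 separate the phases without overlap, the last of them at 0.0419 FPKM or less.

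Genes around the 9 were taken as 4 lists, each described by its counts beside the 27.8% of all genes tested that were called lower and the 15.9% called higher in the luteal phase. Of 11 genes that FSH is known to induce in granulosa cells, 3 were higher and 4 lower in the luteal phase, with a median log2 fold change of −0.66. LHCGR, the receptor of luteinizing hormone, lay between 9.10 and 18.8 FPKM in the follicular and between 74.2 and 103 FPKM in the luteal ovaries, a log2 fold change of 2.87 (limma, adjusted p = 5.95e-07). SGK1, a kinase of the AKT family, and NR5A2, a nuclear receptor that drives steroidogenic genes, rose by 1.84 and 1.58 without overlap. All 3 genes that rose are also known in luteal cells. The lower genes were INHBB, an activin and inhibin subunit (−1.41, limma, adjusted p = 0.0165), HSD17B1, which makes estradiol from estrone (−1.24, adjusted p = 0.00520), CCND2, the FSH-responsive cyclin of granulosa cells (−0.66, adjusted p = 0.000227), and PRKAR2B, a regulatory subunit of protein kinase A (−0.34, adjusted p = 0.0374). PRKAR2B lost its call in 10 of 19 alternatives, among them the TPM scale, equal medians, the fit without the trend and the fits without luteal ovary 1, 2 or 3 or follicular ovary 1, 2 or 4.

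The other 4 FSH-induced genes, named here after their values were seen, were not called. CYP19A1, the aromatase that makes estrogen, ran from 18.1 to 182 FPKM in the follicular and from 5.49 to 111 FPKM in the luteal ovaries, and its log2 fold change of −1.32 was not called (limma, adjusted p = 0.174). The inhibin subunits INHA (−1.04) and INHBA (−1.19) and the activin-binding protein FST (−0.30) were not called either. INHA was called lower without luteal ovary 1 (−1.44, limma, adjusted p = 0.0373) and without follicular ovary 3 (−1.43, adjusted p = 0.0451). With the replicate number as a block, CYP19A1, INHA and INHBA were all called lower (limma, adjusted p = 0.00603, 0.00794 and 0.0141). Follicular ovary 3, low for AMH and FSHR, was the lowest of its phase for CYP19A1 as well.

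Of 12 partners and targets of AMH signalling, 5 were higher and 4 lower in the luteal phase, with a median log2 fold change of 0.12. The type I receptors that AMH can use did not change alike. BMPR1A fell from between 42.0 and 57.6 FPKM in the follicular to between 24.5 and 34.4 FPKM in the luteal ovaries (−0.87, limma, adjusted p = 0.000114), and BMPR1B rose from between 16.4 and 19.8 FPKM to between 26.8 and 32.1 FPKM (0.72, adjusted p = 3.15e-05), while the change of ACVR1 was 0.08 (adjusted p = 0.661). Of the signal-carrying SMADs, SMAD9 (−0.59), SMAD4 (−0.30) and SMAD5 (−0.26) were lower and SMAD1 was not called (0.17, limma, adjusted p = 0.104), whereas the inhibitory SMAD7 (1.03) and SMAD6 (0.42) and 2 of the 3 listed target genes, ID2 (0.54) and ID1 (0.51), were higher. The other target, ID3, had a change of 0.0064 (limma, adjusted p = 0.971) and was called in none of 19 alternatives. The change of ID2 was near the threshold (limma, adjusted p = 0.0461) and was not called in 10 of 19 alternatives. SMAD6 was not called in 8 of 19, among them the fits without luteal ovary 3, 4 or 5 or follicular ovary 1, 3 or 4. SMAD5 lost its call with equal medians, and SMAD1 was called higher on the 3 other scales, namely equal medians, quantile normalization and TPM. The count of higher genes was 3 without luteal ovary 4 or 5 and without follicular ovary 1, 3 or 4.

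Of 15 regulators and targets of the FOXO factors, 6 were lower and 1 higher, with a median log2 fold change of −0.36. The lower genes with the largest change were GADD45A, a stress-response gene (−0.79, limma, adjusted p = 0.0269), TXNIP, an inhibitor of thioredoxin (−0.64, adjusted p = 0.0259), and PIK3R1, the regulatory subunit of PI3K (−0.62, adjusted p = 0.00208). The phases overlapped for GADD45A and TXNIP, and each lost its call in 6 of 19 alternatives, GADD45A without luteal ovary 2, 4 or 5 or follicular ovary 2 or 5, and TXNIP without luteal ovary 4 or 5 or follicular ovary 3 or 4. SOD2, the mitochondrial superoxide dismutase, rose from between 55.0 and 73.4 FPKM to between 110 and 180 FPKM (1.08, adjusted p = 0.000120). On the TPM scale 2 genes of the list were called lower instead of 6.

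Of 16 GATA cofactors, gonadal transcription factors and other gonadal genes such as WNT4, 8 were lower and 1 higher. The 16 genes of this GATA list had a median log2 fold change of −0.74. WNT4, a signal of ovarian development, fell from between 1.22 and 3.04 FPKM to between 0.447 and 0.949 FPKM (−1.51, limma, adjusted p = 0.00227). LHX9 and EMX2, homeobox genes of the early gonad, fell by 1.33 and 1.02 on the log2 scale (limma, adjusted p = 0.000657 and 0.00135), and neither overlapped between the phases. The higher gene was GATA2, a GATA factor of blood and endothelial cells (0.63, limma, adjusted p = 0.0174). With a pseudocount of 1 the change was −0.88 for WNT4 and 0.34 for GATA2, both still called. Without luteal ovary 3 the count of higher genes was 2.

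**Figure D4:**
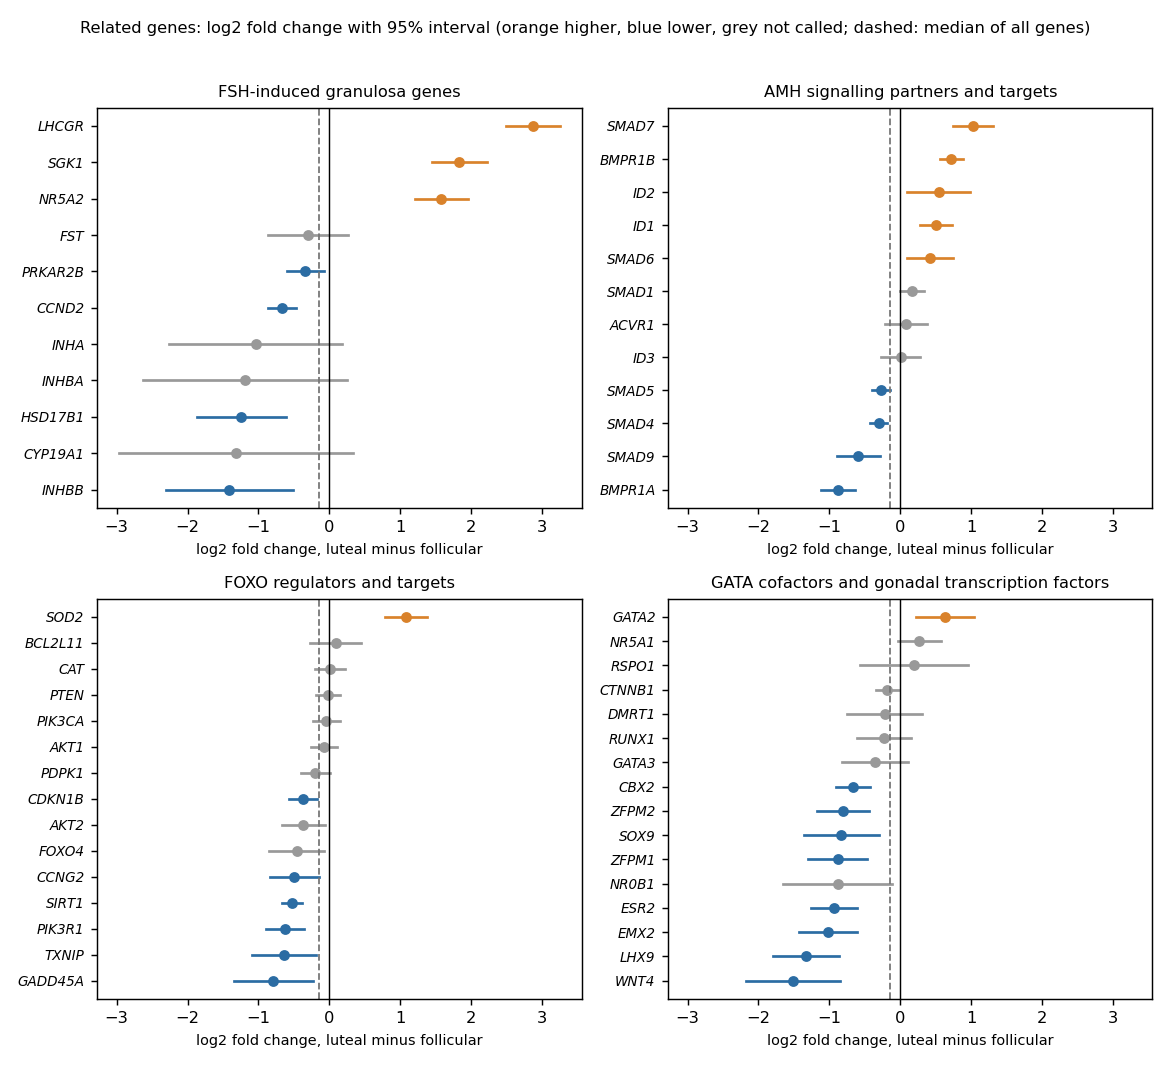
The 4 panels show the log2 fold change of FPKM + 0.1 (luteal minus follicular, x axis) with its 95% interval for each gene of the 4 lists (y axis), in orange where called higher, in blue where called lower and in grey where not called. LHCGR, SGK1 and NR5A2 stand at the right of the FSH-induced genes, and 8 of the 16 genes of the GATA list stand at the left in blue.

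Markers of several cell types that a whole ovary holds differed between the phases, and those of others were mixed or largely not called. These counts stand beside the same 27.8% of all genes called lower and 15.9% called higher. Of 6 luteal cell markers tested, all were higher in the luteal phase, and their summed level was 5905 to 8076 FPKM in the luteal and 131 to 183 FPKM in the follicular ovaries, a separation in the direction of the labels. STAR, which carries cholesterol into mitochondria, rose by 7.35 on the log2 scale (limma, adjusted p = 1.00e-09). All 6 endothelial markers were higher, with sums of 191 to 247 FPKM against 84.3 to 98.0 FPKM. Of 5 theca markers 4 were lower and 1, LHCGR, was higher, and the other 4 summed to 22.0 to 73.1 FPKM in the luteal and 146 to 212 FPKM in the follicular ovaries. LHCGR is also counted among the luteal cell markers. Of 9 oocyte markers, 5 were lower, none was higher, and the sums were 8.67 to 20.4 FPKM against 16.7 to 48.3 FPKM.

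Granulosa markers, of which CYP19A1, INHA, INHBB, HSD17B1, FST and NR5A2 also stand in the FSH-induced list, gave 3 lower, 1 higher and 4 not called of 8, with overlapping sums of 194 to 666 FPKM in the luteal and 262 to 1059 FPKM in the follicular ovaries. Smooth muscle and pericyte markers gave 4 lower and 1 higher of 5 (630 to 1031 FPKM against 1186 to 1458 FPKM), stroma markers 2 lower, 2 higher and 3 not called of 7 (2659 to 4477 FPKM against 2133 to 3014 FPKM), surface epithelium markers 1 lower and 2 higher of 4 tested (9.79 to 25.5 FPKM against 8.15 to 30.8 FPKM), and leukocyte markers 1 higher of 5, with the other 4 not called (46.5 to 55.3 FPKM against 27.6 to 61.2 FPKM). No marker found in the table was at 0 in all ovaries. The part of these shifts in the lower levels of the 9 genes was not tested.

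The 9 genes were then compared with one another within the phases. On values with their phase mean removed, Pearson's r over the 10 ovaries was positive for 23 of the 36 pairs, with a median of 0.09 and a range from −0.87 to 0.71. The balance of signs depended on the scaling, with 16 positive pairs (median −0.0055) once the ovaries' medians were made equal, 27 (0.23) as TPM and 18 (0.0050) under quantile normalization. At an unadjusted exact permutation p under 0.05 stood 2 pairs, and after Benjamini-Hochberg adjustment over the 36 pairs none remained. FSHR and WT1 ran against each other (r = −0.87, exact permutation p = 0.00229, adjusted 0.0825; Spearman's rho −0.78, p = 0.00847, adjusted 0.305), and without follicular ovary 3 and luteal ovary 3, the farthest in FSHR, r was −0.90. AMH and FSHR ran together (r = 0.71, exact permutation p = 0.0346, adjusted 0.623; rho 0.68, p = 0.0467, adjusted 0.841), and r was 0.49 without follicular ovaries 3 and 2, the farthest in AMH. Leaving out 1 ovary gave r from 0.49 to 0.82 for this pair, and its unadjusted p was above 0.05 without luteal ovary 1 or 3 or any 1 of the follicular ovaries. The largest other values were 0.63 for FOXO1 and GATA6, −0.58 for AMH and WT1 and 0.57 for FSHR and FOXL2. The ligand AMH and its receptor AMHR2 had r = 0.38 (exact permutation p = 0.251), the paralogs FOXO1 and FOXO3 had r = −0.000378 and GATA4 and GATA6 had r = −0.27. The number of pairs at an unadjusted p under 0.05 was 1 without luteal ovary 1 or 3 or follicular ovary 1, 3, 4 or 5, and 1 pair passed after adjustment without follicular ovary 3 or 5.

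**Figure D5:**
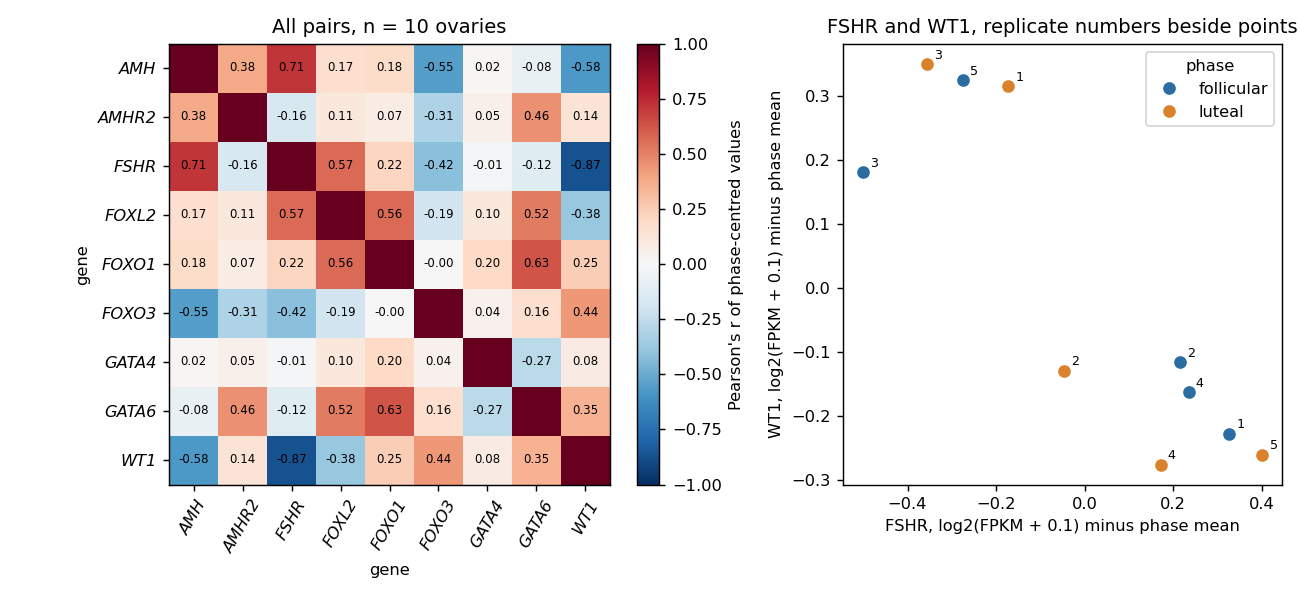
The left panel gives Pearson's r of phase-centred log2(FPKM + 0.1) for all 36 pairs over 10 ovaries, from blue (−1) to red (1). The right panel plots the phase-centred values of FSHR (x axis) against WT1 (y axis), both on the log2 scale, with the replicate number beside each ovary, and shows the pair with r = −0.87 falling from upper left to lower right in ovaries of both phases.

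The marker lists gave a description of which cells' genes each of the 9 followed within the phases. The points are the same 10 libraries in every case. The median phase-centred r with the 8 granulosa markers was 0.76 for FOXL2, with all 8 positive, 0.57 for FOXO1, 0.52 for FSHR, 0.39 for GATA6, 0.38 for AMH, 0.12 for AMHR2 and 0.0035 for GATA4, with 4 of 8 positive for GATA4, and it was −0.38 for FOXO3 and −0.31 for WT1, with none positive. AMH and FSHR also had positive medians with the 5 theca markers (0.51 with 5 positive and 0.55 with 3 positive) and the 6 luteal cell markers (0.46 and 0.44, with 5 positive for each), and LHCGR is in both lists. Single values ran from −0.38 to 0.75 for FSHR with the theca markers and from −0.60 to 0.80 for AMH with the luteal cell markers. WT1 followed the smooth muscle (median r 0.61, 4 of 5 positive) and stroma markers (0.56, all 7 positive), whereas FSHR (−0.60 and −0.55) and AMH (−0.44 and −0.49) ran against both, with none positive. The medians with the smooth muscle markers were also negative for GATA4 (−0.48) and FOXL2 (−0.40), with 1 of 5 positive for each. GATA4 followed the oocyte markers (0.68, 8 of 9 positive) and the endothelial markers (0.57, 5 of 6 positive), and AMHR2 the oocyte markers (0.49, 9 of 9 positive). GATA4 also had a median of 0.41 with the leukocyte markers (4 of 5 positive). With the oocyte markers the median was 0.37 for WT1 (9 of 9 positive) and −0.34 for FSHR (none positive). Such medians were not set beside those of other genes.

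Across all other tested genes, those whose phase-centred values were most like each of the 9 were ranked by r over the 10 ovaries. These are the highest of 15358 values for each gene and are given as a description. AMH was matched most closely by SKP2, HIGD2A and RBBP8 (r 0.92 to 0.93), AMHR2 by GRID1, C23H6orf141 and TRPM6 (0.92 to 0.96), and FSHR by KLHL31, ACOT7 and CANX (0.94 to 0.97). FOXL2 was matched by MYBL2, LYPLAL1 and SH3BP4 (0.93 to 0.94), FOXO1 by ADAM11, DGCR14 and CUNH14orf80 (0.94 to 0.96), and FOXO3 by HIPK3, PPP1R3E and STRN3 (0.87 to 0.92). GATA4 was matched by MAP3K15, FAM117B and GGA1 (0.95 to 0.98), GATA6 by GREB1L, PROZ and FAM8A1 (0.93 to 0.98), and WT1 by ANK3 and MPP2 (0.96 and 0.95). None of the 9 was among the 3 closest genes of another. For AMH, 3.35% of the genes tested lay closer than FSHR, and for FOXO1, 4.28% lay closer than GATA6. Genes close to one of the 9 within phases did not have to share its change between them: TRPM6, close to AMHR2, was higher in the luteal phase (1.97, limma, adjusted p = 7.65e-05), and RBBP8, close to AMH, was higher too (0.38, adjusted p = 0.0394).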

How the data were processed

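Total RNA of 10 whole goat ovaries was sequenced by the authors as ribosomal RNA-depleted, paired-end libraries, aligned with HISAT2, assembled with StringTie and quantified with Cuffdiff. The deposited FPKM of every transcript in each ovary was used. The genome build is not given in the sources used here, and read depth per ovary is unknown. Luteal ovaries summed to between 452508 and 503276 FPKM each, and follicular ovaries to between 492324 and 540124 FPKM. Identical values were held by 0 of 45 pairs of ovaries. Of the separate tables of mRNA and annotated lncRNA, all rows repeat the full table.

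FPKM of protein-coding transcripts were summed per symbol. Genes with at least 0.1 FPKM in at least 5 of 10 ovaries were tested on log2(FPKM + 0.1) with limma 3.58.1 (lmFit, eBayes with trend) in R 4.3.3, luteal minus follicular, two-sided, and Benjamini-Hochberg adjusted over all 15359 genes (or 32842 transcripts). Fold changes of low genes are understated by the pseudocount. A call is an adjusted p under 0.05. Pairs of genes were tested by exact permutation of the ovaries, and correlations by all 14400 permutations within the phases, in scipy 1.17.1 and pandas 2.3.3 under Python 3.11.15. The limma fits and the correlations within the phases were tested on simulated data.

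The 9 genes and all lists were chosen with earlier results of these data known. Named genes of a list are the 3 with the largest called change in each direction, and lists of at most 5 called or uncalled genes were completed after their values were seen. Genes were matched by symbol, all 9 also by gene ID to RefSeq (assembly ARS1.2), which gave neighbours and, through synonyms, CYP11A1 and CYP17A1 under LOC102173131 and LOC102182663. Listed genes whose symbol was not found in the table, such as HSD3B1, were not analysed here. A gene among those ranked by likeness is withheld and not reported here, although counts include it. The fits were repeated with each ovary left out in turn, with the replicate number as a block, on TPM, quantile-normalized and median-aligned values, with 0.01 or 1 as the pseudocount, with a minimum of 0.5 FPKM or none, without the eBayes trend, and with the most abundant transcript of each gene in place of the sum.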

Additional observations from a re-analysis of the deposited data

Results flagged for a closer look

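In each of the 9 genes and both phases, 18 groups of 5 ovaries in all, the gap of the highest or lowest ovary to its neighbour stayed below Dixon's 95% critical value of 0.71 of the range, where chance would exceed it in about 1 of 20 groups.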

How the results depend on the processing

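All 9 genes kept a lower luteal level in all 20 alternatives, and of 180 values 177 stayed called. The TPM scale, on which FOXO1, GATA6 and WT1 were not called, left 6 of 9, and every other alternative left 9. The median log2 fold change of all genes was −0.14 on the deposited scale, −0.05 after the common-median shift and −0.05 on the TPM scale, and the genes called numbered 6711, 5965 and 5494. Without a filter, 3 of the AMH signalling genes were called higher in place of 5. The TPM scale left 2 FOXO genes called lower in place of 6. With a pseudocount of 1, AMH minus AMHR2 was −0.63 (exact permutation test, unadjusted p = 0.0317). The labels do not say whether equal replicate numbers pair the ovaries. The correlation of same-numbered deviations was 0.026 to 0.199, over 0.1 for 2 of 5 numbers. Of the 5 ovaries, 2 correlated best with their own number, and so few values cannot decide whether the ovaries were paired. With the replicate block all 9 genes were called, 7020 genes in all were called, 6 FSH-induced genes were lower in place of 4, and 2 genes of the GATA list were higher in place of 1.

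Leaving out 1 ovary gave 3 to 5 higher AMH signalling genes, 1 to 2 higher genes of the GATA list, differences of −0.48 to −0.14 for AMH minus AMHR2, −0.17 to 0.061 for FOXO1 minus FOXO3 (reversed without follicular ovary 1, at 0.061), −0.50 to −0.31 for GATA4 minus GATA6 and 0.41 to 0.61 for FSHR minus AMH, 1 to 3 pairs of genes at an exact permutation p under 0.05 and 0 to 1 after adjustment. The cause of these shifts was not tested. The transcript count ran from 7 to 10 over its alternatives. Since depth per ovary is unknown, the counting error behind low values such as AMHR2 cannot be given, and the spread between ovaries is the measure of precision.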

Other observations

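A minor transcript of GATA4 was higher in 1 ovary than in the others. XM_018051834.1 had 0.634 FPKM in luteal ovary 3 and at most 0.0379 FPKM in each of the other 9 ovaries, and it was too low for testing. The gene level of GATA4 in luteal ovary 3, 6.09 FPKM, lay within the range of the other luteal ovaries. A minor transcript of GATA6, XM_018039632.1, had 0.0309 to 0.0419 FPKM in the follicular ovaries and 0 to 0.0262 FPKM in the luteal ovaries, also below the filter.

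GREB1L, a homolog of an estrogen-regulated growth gene, had the closest phase-centred values to GATA6 (r = 0.98 over 10 ovaries) and lies on the same chromosome in the goat annotation, with 4 protein-coding genes between them. It was lower in the luteal phase as well, at 11.1 against 13.9 FPKM (log2 fold change −0.34, limma, adjusted p = 0.0393). Of the 27 genes closest to the 9, HIGD2A was the other on the chromosome of its match, AMH, with 70 genes between them.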
